A study of Mus musculus with 75 samples.

Results

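The measurements below concern 10 genes that make, package or mark the transmitters of enteric neurons, namely Nos1, Vip, Chat, Slc18a3, Tac1, Penk, Npy, Gal, Cartpt and Calb2. They were chosen by symbol and are 10 of the 21051 symbols in the deposited counts of the untreated and 2 h experiments and 10 of the 21076 symbols in those of the 24 h experiment. All 10 passed the filter on low counts in each experiment, with 14090, 13107 and 14903 genes tested in the untreated, 2 h and 24 h experiments.

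The study profiled RNA from cells labelled as enteric glia, the supporting cells of the nervous system in the gut wall, in 75 libraries that form 16 groups. All animals were adult mice that carried a green fluorescent (eGFP) reporter transgene. Untreated reporter mice gave myenteric libraries of the colon (5) and small intestine (6) and submucosal libraries of the colon (5) and small intestine (6). All treated libraries came from the myenteric plexus. In the 2 h experiment, reporter mice received LPS (lipopolysaccharide, a bacterial endotoxin) at 2 mg/kg or PBS (phosphate-buffered saline) once into the peritoneum, and each region and treatment had 4 libraries taken 2 h later. In the 24 h experiment the same injections were given to Gpr37WT reporter mice and to Gpr37-/- reporter mice, which lack the receptor gene Gpr37 in addition to carrying the reporter. In Gpr37WT reporter mice the small intestine had 6 libraries after PBS and 4 after LPS, and the colon 4 and 5. In Gpr37-/- reporter mice the small intestine had 4 after PBS and 5 after LPS, and the colon 5 and 4. How the cells were isolated is not given in the sources used here, and an RNA of neurons can enter such a library with any neuronal cell or process that came with the glia.

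The enteric nervous system lies in 2 layers, the myenteric plexus between the muscle coats, which drives motility, and the submucosal plexus, which serves secretion and blood flow. Excitatory motor neurons release acetylcholine, which choline acetyltransferase (Chat) makes and the vesicular transporter Slc18a3 loads into vesicles, together with the tachykinins encoded by Tac1. Inhibitory motor neurons release nitric oxide, made by neuronal nitric oxide synthase (Nos1), together with vasoactive intestinal peptide (Vip). Opioid peptides from Penk, neuropeptide Y, galanin and the peptide of Cartpt are used as co-transmitters, and the calcium-binding protein calretinin (Calb2) marks subsets of excitatory, sensory and secretomotor neurons.

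Library totals ran from 2547296 to 9002546 counts in the untreated, from 1990744 to 7883251 in the 2 h and from 2882539 to 33283346 in the 24 h experiment. None of the 9 glial markers was at 0 throughout any group, and their summed level was between 611 and 17832 CPM (counts scaled to library size with TMM factors) in single libraries. None of 12 pan-neuronal markers was at 0 throughout any group either, and their summed level ran from 61.4 CPM in a submucosal colon library to 7493 CPM in a small intestinal library 24 h after LPS. Gpr37 had at most 2 counts in the 9 small intestinal and at most 9 in the 9 colonic Gpr37-/- libraries, and 3 or fewer counts in 1 of 10 small intestinal and 3 of 9 colonic Gpr37WT libraries. The latter 3 were all LPS libraries (mice 3, 5 and 8, with 2, 0 and 0 counts), and mouse 3 also had no count in the small intestine, so Gpr37WT below means libraries labelled so. In bulk libraries such as these, fewer neurons and less RNA per neuron cannot be told apart.

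On GRCm38, Slc18a3 (chr14:32462438-32464850, minus strand, 1 exon) sits within an intron of Chat (chr14:32408203-32465989, minus strand), and they share no exonic bases. Nos1 (chr5:117781032-117958840, plus strand) shares 268 exonic bases with the antisense gene Gm26995, and Penk (chr4:4133531-4138819, minus strand) shares 233 with A830012C17Rik on the other strand. Because the use of strand in counting is not given, reads in those stretches cannot be told apart. The others are Vip (chr10:5639218-5647617, plus), Tac1 (chr6:7554879-7565834, plus), Npy (chr6:49822710-49829507, plus), Gal (chr19:3409915-3414544, minus), Cartpt (chr13:99898489-99901091, minus) and Calb2 (chr8:110137502-110168210, minus), all protein-coding in GENCODE M21.

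Per kilobase of annotated exon, galanin mRNA had the highest median in untreated myenteric libraries, at 204 CPM per kb for the small intestine and 129 CPM per kb for the colon. In the small intestine the medians of Tac1 (58.3), Penk (55.6), Npy (44.2), Calb2 (33.1), Cartpt (27.0), Slc18a3 (19.0) and Vip (16.3 CPM per kb) followed, with Nos1 at 5.05 and Chat at 0.391 CPM per kb. Differences between neighbours in this order were not tested. Chat was the scarcest of the 10 in that group, and 3 of 6 libraries held none of its reads.

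The comparison of the colon with the small intestine asked how the glia-labelled preparations differ along the gut. In untreated myenteric plexus all 10 transmitter genes had a lower fitted level in the colon, and 3 of them were called lower, Slc18a3, Npy and Cartpt. Of all 14090 genes tested, 3.19% were called in either direction and 1.53% lower, and the median log2 fold change was -2.87 over the 10 genes and 0.01 over all genes. The called genes carry the vesicular step of cholinergic transmission and a pair of peptide co-transmitters. In a fit with a block for the labelled sex and number, Npy alone of the 10 genes was called.

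Slc18a3 was at 4.35, 0, 0, 2.13 and 0 CPM in the 5 myenteric colon libraries, and its lowest, median and highest values in the 6 small intestinal libraries were 33.3, 45.9 and 66.6 CPM. The groups did not overlap, and 3 colon libraries held no read at all. Its fitted level fell by 5.14 on the log2 scale (SE 1.16, adjusted p = 0.0227 by the quasi-likelihood test of edgeR, Benjamini-Hochberg). Without small intestinal library F1 its adjusted p was 0.0545, and it kept the call in the other 10 fits that each left out 1 library.

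Npy, the gene of neuropeptide Y, was at 0, 3.02, 0, 0.164 and 0 CPM in the colon and at 3.68, 25.0 and 42.9 CPM (lowest, median, highest) in the small intestine. Again the groups did not overlap. The level fell by 5.56 on the log2 scale (SE 1.09, edgeR adjusted p = 0.0086), and the call held in all 11 fits that left out 1 library.

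Cartpt, whose peptide is found in many myenteric interneurons and motor neurons, was at 8.70, 9.97, 6.14, 2.29 and 1.58 CPM in the colon and at 12.1, 34.4 and 249 CPM (lowest, median, highest) in the small intestine. The groups were apart by a narrow margin. The level fell by 3.50 on the log2 scale (SE 0.92, edgeR adjusted p = 0.0406), but 5 of the 11 fits that left out 1 library lost the call, with adjusted p up to 0.189 without small intestinal library F1.

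The other 7 genes did not pass. Tac1, the tachykinin precursor gene, was at 18.3, 32.6, 7.89, 10.5 and 14.7 CPM in the colon against 32.8, 198 and 787 CPM (lowest, median, highest) in the small intestine, with no overlap, a log2 fold change of -4.12 ± 1.34 (SE) and an edgeR adjusted p of 0.0954. Vip was at 21.3, 8.76, 3.18, 11.1 and 0.700 CPM against 8.85, 55.5 and 696 CPM, with overlap and a log2 fold change of -4.19 ± 1.27 (SE, edgeR adjusted p = 0.0738). Nos1 had a colon library of 56.2 CPM beside 4 between 4.13 and 14.5 CPM, and its log2 fold change of -1.75 ± 0.70 (SE) had an adjusted p of 0.193, which became 0.035 without that library, M2. Gal (-1.95), Calb2 (-1.84), Chat (-2.23) and Penk (-0.56, the value nearest 0) completed the set on the log2 scale, with edgeR adjusted p between 0.116 and 0.726. In the colon all 5 Gal values lay between 72.1 and 118 CPM, while the small intestinal values ran from 60.2 to 900 CPM.

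**Figure D1:**
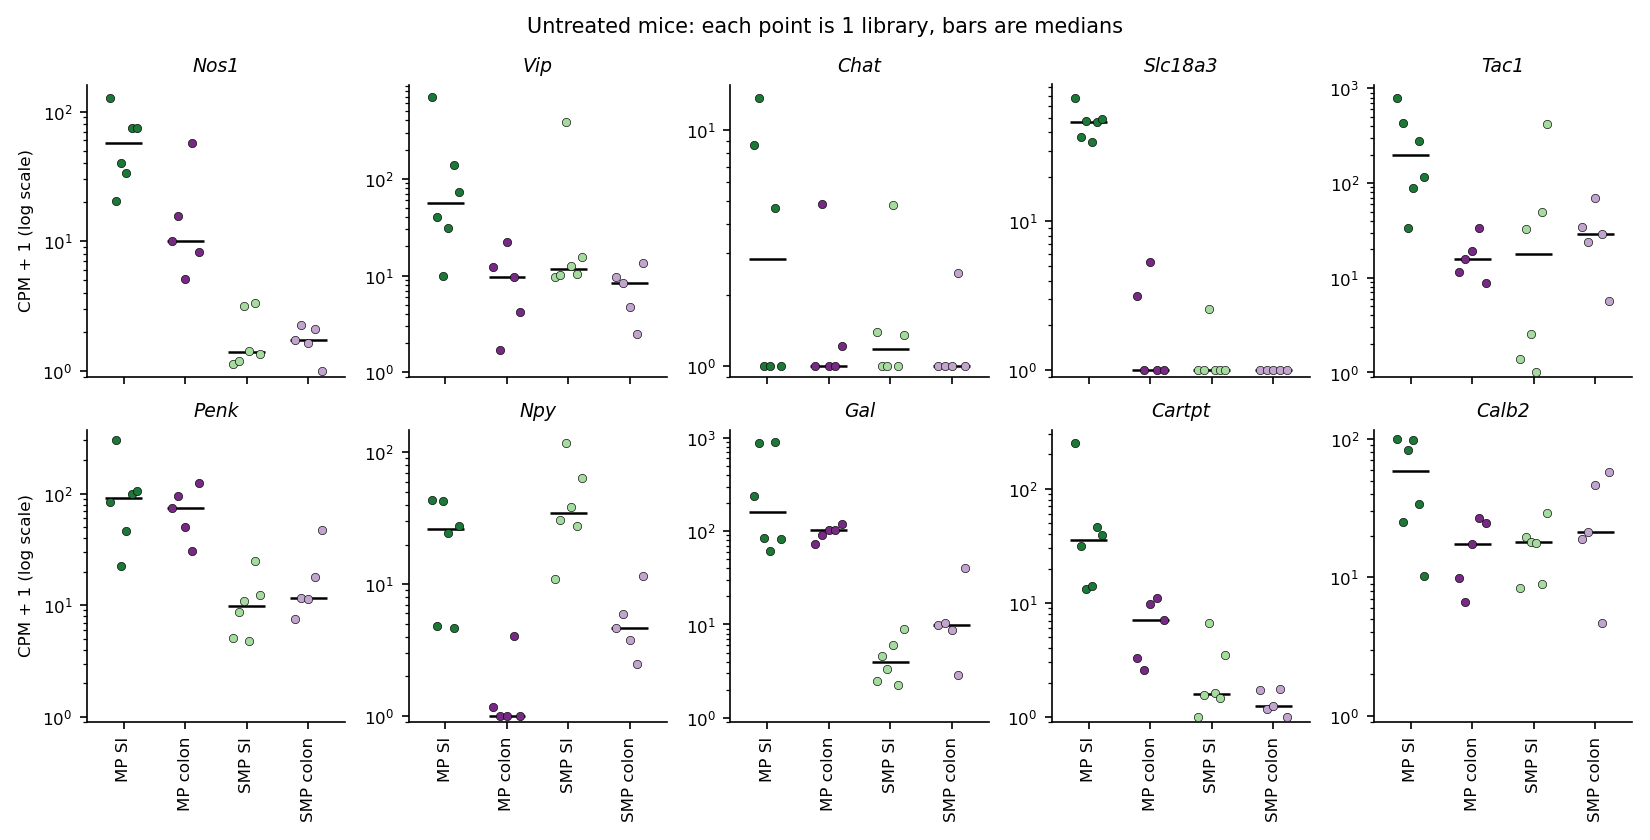
CPM plus 1 (log axis) of each of the 10 genes in untreated mice, for the myenteric plexus (MP) and submucosal plexus (SMP) of the small intestine (SI) and colon. Each point is 1 library and each bar a group median. Slc18a3 and Npy in the MP lie between 0 and 4.35 CPM in the colon and from 3.68 CPM upward in the small intestine.

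General neuronal genes moved with the transmitter genes. Of 12 pan-neuronal markers, 8 were called lower in the colon, led by Elavl4 (-3.83), Syt1 (-3.70) and Prph (-3.34 log2), and their summed level ran from 209 to 451 CPM in the colon and from 855 to 3029 CPM in the small intestine. Among 11 tested genes of peptide processing and dense-core vesicles 4 were called lower and none higher, with Scg2 (-5.25), Chgb (-4.78) and Pcsk2 (-3.50 log2) first. Of 7 tested genes of other transmitter synthesis and transport, the choline transporter gene Slc5a7 (-3.97 log2) and the acetylcholinesterase gene Ache (-3.10 log2) were called lower, and of 6 other enteric neuropeptide genes Calcb was (-4.72 log2). None of the 9 glial markers was called, and 3 of 6 smooth muscle, 3 of 5 fibroblast and 1 of 2 markers of interstitial cells of Cajal were called higher. Of 4 tuft cell markers 1 was called lower. How far neuronal content accounts for the values of the 10 genes was not tested.

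The upstream sequences of Slc18a3 and Npy are shown because these members had the largest called differences between regions. RefSeq (GRCm38.p6) gave an upstream window of 250 bases for 8 of the 10 genes. The window of Slc18a3 is chr14:32464851-32465100 (minus strand), within the Chat gene, and that of Npy is chr6:49822460-49822709 (plus strand). Both are written 5′ to 3′ up to the base before the annotated start, and capitals mark the letters TGACG or CGTCA, the core of the cyclic AMP response element searched on both strands.
Slc18a3: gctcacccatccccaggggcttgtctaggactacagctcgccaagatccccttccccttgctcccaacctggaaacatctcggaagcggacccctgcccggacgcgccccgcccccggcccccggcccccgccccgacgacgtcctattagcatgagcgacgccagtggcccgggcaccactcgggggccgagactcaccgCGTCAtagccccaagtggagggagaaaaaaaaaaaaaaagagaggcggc
Npy: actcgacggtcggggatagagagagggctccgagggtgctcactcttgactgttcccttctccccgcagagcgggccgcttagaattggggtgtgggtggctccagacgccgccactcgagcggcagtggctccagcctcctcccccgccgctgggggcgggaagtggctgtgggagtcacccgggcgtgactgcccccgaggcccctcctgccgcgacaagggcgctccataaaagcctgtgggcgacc
The core was present in the windows of 6 of the 8 genes, once in Slc18a3 and not in Npy, and in 17.8% of 32851 windows of the same length. The full palindrome TGACGTCA, which contains the core, occurred in 1.55% of windows and in that of Cartpt alone among the 8 genes. The G and C content of the windows was 66% for Slc18a3 and 69.2% for Npy. These matches describe letters only.

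Mice of the other experiments, which share no samples with the untreated mice, gave the same comparison again. In the 2 h PBS groups all 10 genes had negative log2 fold changes in the colon, and Slc18a3 was the 1 member called lower, where 0.221% of 13107 genes were called and 0.137% called lower. The median log2 fold change was -4.47 over the 10 genes, or -4.34 with Chat at its bound, and 0.01 over all genes. Slc18a3 was at 2.80, 2.72, 0 and 0 CPM in the colon and at 252, 216, 35.7 and 154 CPM in the small intestine, and the level fell by 6.88 on the log2 scale (SE 1.31, edgeR adjusted p = 0.0383). The groups were far apart. The call was lost in 7 of the 8 fits that left out 1 library of either group, with adjusted p up to 0.118, and only the fit without small intestinal library F3 kept it. Chat had no read in any of the 4 colon libraries and was at 23.0, 20.0, 8.03 and 17.4 CPM in the small intestine, which is at least 20.1-fold lower against a floor of 3 counts per library (edgeR adjusted p = 0.0725). Vip and Npy did not overlap between regions either, with edgeR adjusted p of 0.242 and 0.213. Of the pan-neuronal markers, 2 of 12 were called lower. Summed smooth muscle markers were at 19382 to 72124 CPM in the colon and at 2337 to 15329 CPM in the small intestine, without overlap. The part of cell content in these values was not tested.

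In the Gpr37WT PBS groups of the 24 h experiment no member was called, where 0.141% of 14903 genes were. An unadjusted p under 0.05 was reached by 2 members and by 1001 of all 14903 genes. DESeq2 called 1 member, Gal, and a fit of the compared groups alone also gave calls, as described under processing below. The largest differences were Npy at -3.72 ± 1.41 (edgeR adjusted p = 0.483) and Gal at -3.25 ± 1.12 (adjusted p = 0.415) in log2 fold change with SE. Vip went the other way, at 1.92 ± 1.23, through colon libraries of 386 and 1668 CPM beside 31.7 and 26.0 CPM.

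At 24 h, 15 mice gave a library of each region, so a fit added after the data had been seen averaged the regional difference over the 4 arms of genotype and treatment with the mouse as a block. It called 5 of the 10 genes lower in the colon, Slc18a3, Tac1, Npy, Gal and Cartpt, where 4.84% of 15091 genes were called and 3.1% called lower. All 10 estimates were negative, and the median log2 fold change was -2.29 over the 10 genes and -0.07 over all genes.

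Slc18a3 was lower in the colon in 15 of 15 mice, with paired log2 differences between -8.48 and -0.25, and its averaged level fell by 2.95 (SE 0.45, edgeR adjusted p = 0.00268). Npy was also lower in 15 of 15 mice and fell by 4.99 (SE 0.85, adjusted p = 0.0051). In no arm did either gene have a mouse with the opposite order. Cartpt fell by 2.72 (SE 0.57, adjusted p = 0.0156) and was lower in 13 of 15 mice, the exceptions being 1 Gpr37-/- and 1 Gpr37WT mouse of the PBS arms. These 3 genes kept their call when each of the 15 mice was left out in turn.

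Tac1 fell by 2.53 (SE 0.64, edgeR adjusted p = 0.0364) and Gal by 2.52 (SE 0.63, adjusted p = 0.0341) on the log2 scale, lower in the colon in 13 and 12 of 15 mice. Both calls were fragile, since they held in 3 and 5 of the 15 fits that left out a mouse. Nos1 was lower in 14 of 15 mice at -1.64 ± 0.50 (adjusted p = 0.0735), Chat in 14 of 15 at -2.06 ± 0.85 (adjusted p = 0.199), and Vip in 11 of 15 at -1.93 ± 0.77 (adjusted p = 0.182). Nos1 was called without mouse 7 (adjusted p = 0.00326) and Chat without mouse 16 (adjusted p = 0.0457). Calb2 (-0.61 ± 0.51) and Penk (-0.06 ± 1.09) were nearest 0, and Penk was lower in the colon in 8 of 15 mice. For Penk the 95% interval of the log2 difference ran from -2.38 to 2.26. In the same fit 8 of 12 pan-neuronal and 6 of 12 peptide-processing genes were called lower, and 2 of 9 glial markers higher. Of 6 mesothelial markers 4 were called lower and all 6 were negative (median -5.22 on the log2 scale), and their part in the values of the 10 genes was not tested.

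**Figure D2:**
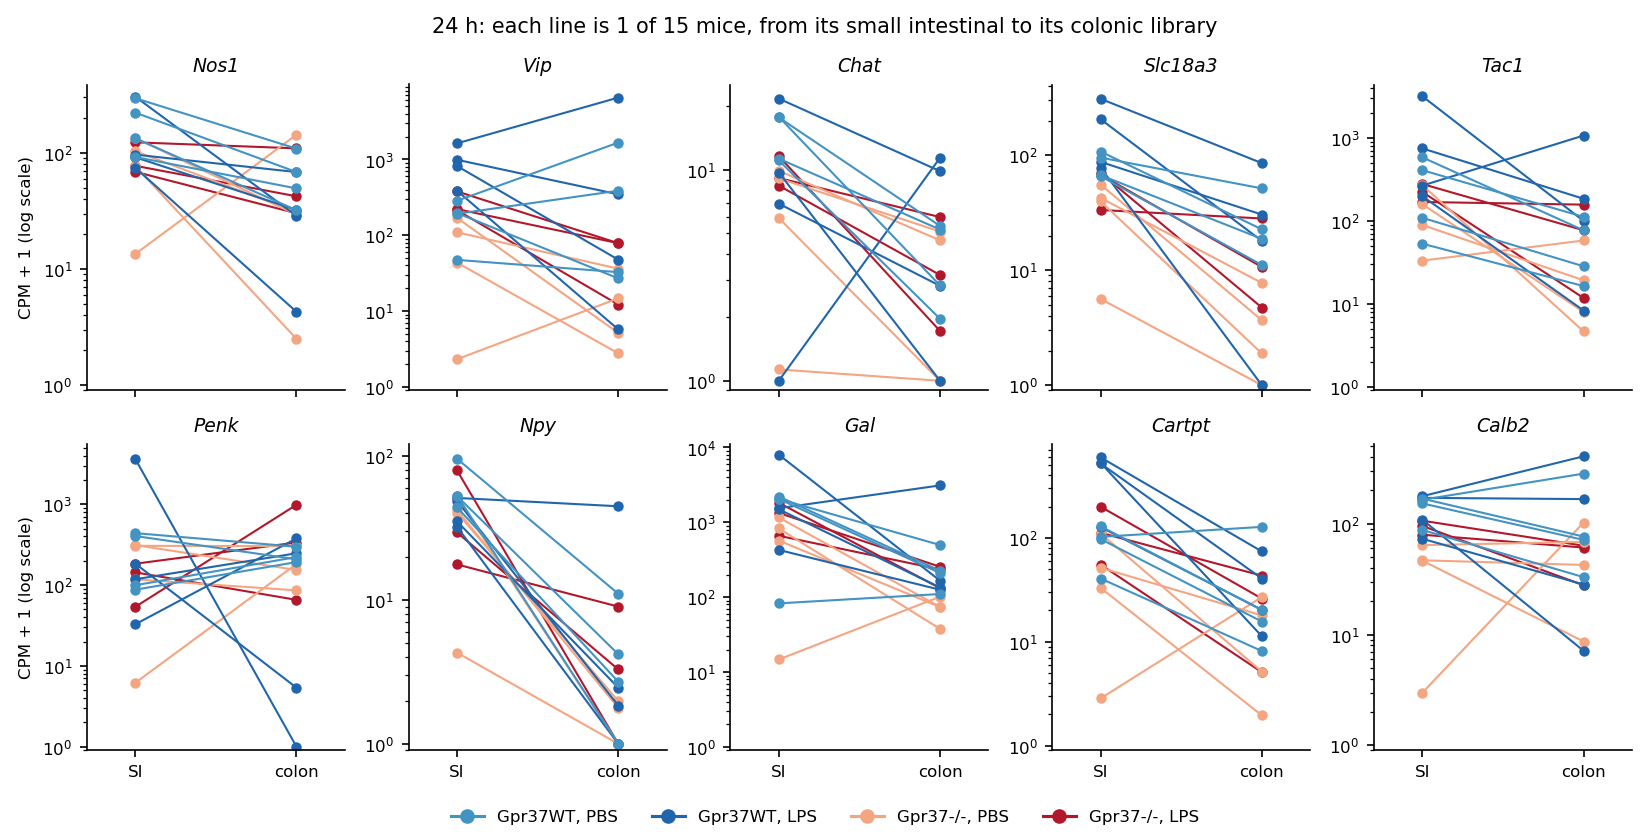
CPM plus 1 (log axis) of each gene in the small intestinal (SI) and colonic myenteric library of the same mouse at 24 h, with 1 line per mouse for 15 mice and colour for genotype and treatment. Every line falls from SI to colon for Slc18a3 and Npy, while Penk falls in 8 of 15 mice.

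**Figure D3:**
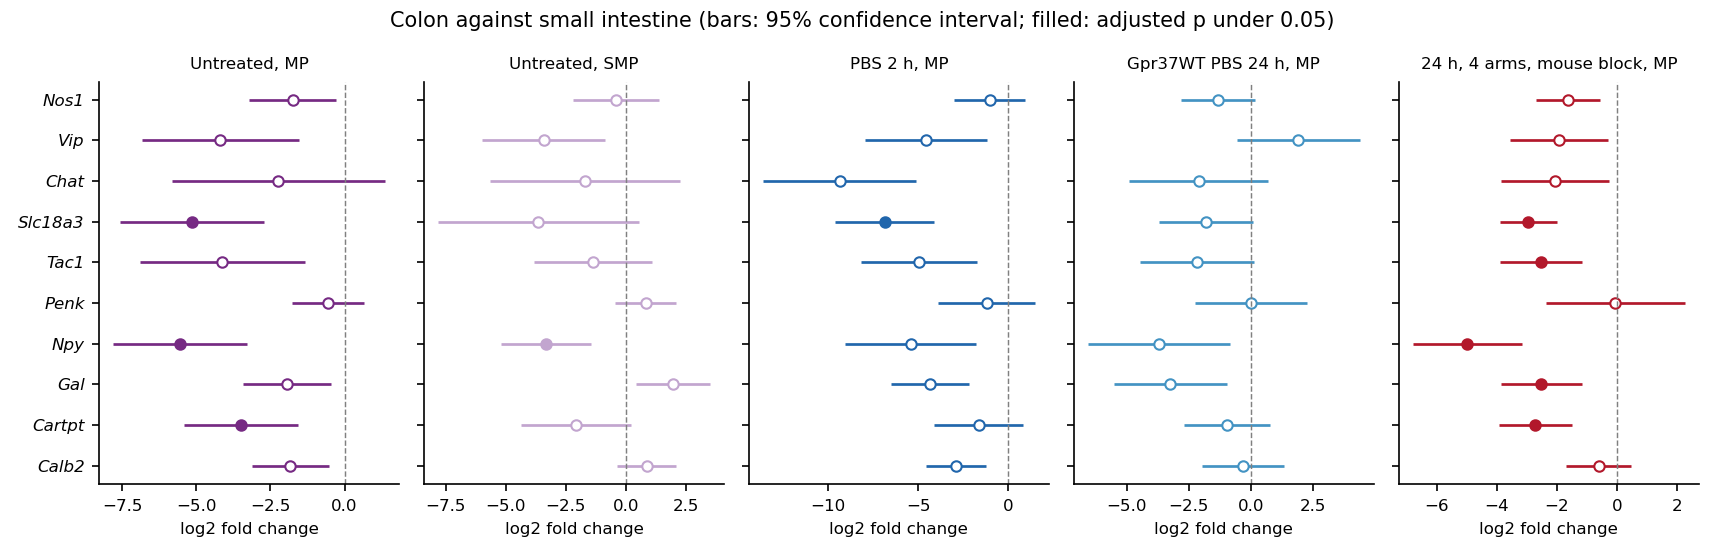
Log2 fold change of colon over small intestine (SI) with its 95% confidence interval for the 10 genes, in untreated myenteric (MP) and submucosal (SMP) plexus, the 2 h PBS and 24 h Gpr37WT PBS groups, and the 24 h average over 4 arms with a mouse block. Filled points passed an adjusted p of 0.05, as did Slc18a3, Npy and Cartpt in the untreated MP and in the 24 h average.

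In untreated submucosal plexus the regional difference was smaller for most members, and Npy was the 1 gene called, and called lower, where 5.18% of genes were called and 1.36% called lower. Npy was at 1.48, 10.4, 3.62, 4.98 and 2.79 CPM in the submucosal colon and at 9.88, 33.5 and 116 CPM (lowest, median, highest) in the submucosal small intestine. Only the 10.4 CPM colon library reached into the small intestinal range. The level fell by 3.31 on the log2 scale (SE 0.90, edgeR adjusted p = 0.0342). Of the 11 fits that left out 1 library, 6 lost the call, with adjusted p up to 0.0902. A fit with a block for the labelled sex and number lost it too. Vip (-3.41 ± 1.23, adjusted p = 0.122) and Gal, which was higher in the colon (1.97 ± 0.75, adjusted p = 0.142), did not pass. Without small intestinal library F3, at 386 CPM beside 8.70 to 14.4 CPM, the log2 fold change of Vip was -0.63 (edgeR adjusted p = 0.812). Of 9 glial markers 2 were called higher in the submucosal colon and all 9 were positive. Median endothelial sums were 443 CPM in the submucosal colon and 105 CPM in the submucosal small intestine. Those of enteroendocrine markers were 291 and 520 CPM, and both lists overlapped between regions. The part of cell content in these values was not tested. The median log2 fold change over the 10 genes was -1.54, or -0.89 with Slc18a3 set to no change because both groups were at or under 3 counts on average, and -0.05 over all genes.

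The difference between the regional effects of the plexuses was tested by an interaction. No member passed, where 1.19% of genes did, although all 10 interaction terms were positive. An unadjusted p under 0.05 was reached by 2 members and by 2071 of all 14090 genes. DESeq2 called 2, Gal and Calb2. The interaction was positive for 9 of 9 glial markers (1 called) and 11 of 12 pan-neuronal markers (2 called), with medians of 1.56 and 1.53 beside 1.47 for the 10 genes, and their part in it was not tested. Gal had the largest, 3.92 ± 1.03 on the log2 scale (edgeR adjusted p = 0.0651), followed by Calb2 at 2.71 ± 0.86 (adjusted p = 0.126). Gal passed in 4 of the 22 fits that left out 1 library, those without myenteric small intestinal libraries M1, M3 or F3 or submucosal colon library M1.

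The comparison of plexuses asked how submucosal preparations differ from myenteric ones. In the small intestine 6 of the 10 genes were called lower in the submucosal libraries, where 43.5% of all genes were called in either direction and 21.2% lower. In the colon 5 were called lower and Npy higher, where 21.8% of genes were called, 11.1% lower and 10.7% higher. When these groups were fitted alone 3 were called, Nos1, Penk and Gal. Npy then had an edgeR adjusted p of 0.131, and Slc18a3 and Cartpt did not pass the filter on low counts. The shares of all genes above belong to the fit of all untreated groups together and not to this one. Over the 10 genes the median log2 fold change was -2.89 for the small intestine and -1.93 for the colon, or -1.46 with Slc18a3 at its bound, against 0.06 and -0.01 over all genes.

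Nos1 was at 0.423, 2.33, 0.360, 0.132, 0.189 and 2.14 CPM in the 6 submucosal libraries of the small intestine and between 19.4 and 126 CPM in the myenteric ones. The ranges were apart. The level fell by 5.96 on the log2 scale in the small intestine (SE 0.82, edgeR adjusted p = 9.97e-06). In the colon the submucosal values were 1.11, 0, 0.723, 1.24 and 0.634 CPM, all below the lowest myenteric value of 4.13 CPM, and the level fell by 4.61 (SE 0.88, adjusted p = 0.00119).

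Gal was at 5.08, 1.25, 7.91, 1.45, 3.59 and 2.34 CPM in the submucosal small intestine and from 60.2 to 900 CPM in the myenteric. It fell by 6.76 on the log2 scale (SE 0.85, edgeR adjusted p = 3.72e-06) with no overlap. The submucosal colon libraries were at 1.85, 39.1, 8.97, 9.25 and 7.74 CPM, below all 5 myenteric values, and the level fell by 2.84 (SE 0.76, adjusted p = 0.0115). The upstream window of Gal, chr19:3414545-3414794 (minus strand, 62.4% G and C), is shown for comparison with that of Npy, which moved the other way in the colon, and neither holds the core letters marked above.
Gal: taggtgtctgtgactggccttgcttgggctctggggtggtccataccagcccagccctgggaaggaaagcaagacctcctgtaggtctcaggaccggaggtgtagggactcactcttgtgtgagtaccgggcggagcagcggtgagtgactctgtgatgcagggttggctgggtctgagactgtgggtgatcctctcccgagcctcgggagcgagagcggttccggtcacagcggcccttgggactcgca

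Slc18a3 was at 0 in all 5 submucosal colon libraries and in 5 of the 6 submucosal small intestinal libraries, the other standing at 1.56 CPM. The small intestinal level fell by 7.35 on the log2 scale (SE 1.24, edgeR adjusted p = 0.000151). In the colon it was at least 2.14-fold lower against a floor of 3 counts per library (adjusted p = 0.0301), a call that 5 of 10 fits without 1 library lost. Cartpt fell by 5.33 in the small intestine (SE 0.95, adjusted p = 0.000148) and by 3.91 in the colon (SE 1.10, adjusted p = 0.0148), with submucosal values of at most 5.65 and 0.740 CPM and no overlap in either region.

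Penk, the enkephalin precursor gene, was at 3.81, 8.84 and 24.1 CPM (lowest, median, highest) in the submucosal small intestine and at 21.4, 90.8 and 303 CPM in the myenteric. It fell by 3.42 there (SE 0.62, edgeR adjusted p = 0.000179) and by 2.03 in the colon (SE 0.64, adjusted p = 0.0277), where 5 of 10 fits without 1 library lost the call. Calb2 fell by 1.85 in the small intestine (SE 0.59, adjusted p = 0.0141) and was at 0.86 ± 0.63 in the colon (adjusted p = 0.354). Vip (-1.16 and -0.37), Tac1 (-1.81 and 0.94) and Chat (-2.36 and -1.83 log2, small intestine and colon) did not pass in either region. Without submucosal small intestinal library F3, at 386 CPM beside values of 8.70 to 14.4 CPM, the Vip difference there had an adjusted p of 0.00224. Without library M3, at 417 CPM, that of Tac1 had an adjusted p of 0.0054.

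Npy was the 1 member called higher in the submucosal plexus. In the colon its level was 3.23 higher on the log2 scale in the submucosal plexus (SE 1.06, edgeR adjusted p = 0.0336), from the values given above of 1.48 to 10.4 CPM against 0 to 3.02 CPM, and 6 of 10 fits without 1 library lost the call. In the small intestine the submucosal values of 9.88 to 116 CPM overlapped the myenteric 3.68 to 42.9 CPM, and the log2 difference was 0.98 ± 0.76 (adjusted p = 0.313).

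The submucosal libraries differed in cell content as a whole. In the small intestine 11 of 12 pan-neuronal and 9 of 9 glial markers were called lower, and in the colon 8 of 12 and 4 of 9. Immune markers were called higher for 6 of 6 in each region, epithelial markers for 6 of 6 (small intestine) and 2 of 6 (colon), and enteroendocrine markers for 6 of 7 and 1 of 7. Summed glial markers were at 611 to 2156 CPM in the submucosal and 9505 to 14815 CPM in the myenteric small intestine. Among the other neuropeptide genes of the small intestine Cck (8.62) and Sst (4.16 log2), which enteroendocrine cells also make, were called higher in the submucosal plexus, and Calcb (-6.69), Nmu (-4.85 log2) and Grp, which had no read there, lower. Of 10 tested receptors of the members, 5 were called lower and 1 higher for the small intestine, while 7 were called lower for the colon, among them in each region the galanin receptor gene Galr2, at -8.36 log2 in the small intestine and with no read in the submucosal colon. Smooth muscle markers were called lower for 6 of 6 and mesothelial markers for 5 of 6 in each region, and endothelial markers for 3 of 3 in the small intestine. The part of cell content in the values of the 10 genes was not tested.

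The next comparison asked what LPS did to these transcripts after 2 h. None of the 10 genes was called in the small intestine, where 1.1% of 13107 genes were, or in the colon, where 0.778% were. At an unadjusted p under 0.05 there was 1 small intestinal gene, Gal, and 5 colonic ones. Of all 13107 genes, 681 and 987 reached it. DESeq2 called 0 and 2 members. The treatment by region interaction gave no call for any gene, 0% of those tested. An unadjusted p under 0.05 was reached by 3 members and by 452 of all 13107 genes. DESeq2 called 1, Chat.

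Gal in the small intestine was at 2751, 7605, 158 and 365 CPM after PBS and at 195, 86.6, 1206 and 492.6 CPM after LPS. The groups overlapped, and the log2 fold change was -2.46 ± 0.94 (edgeR adjusted p = 0.589). In the colon Slc18a3 was at 2.80, 2.72, 0 and 0 CPM after PBS and at 100, 0.200, 36.6 and 11.6 CPM after LPS. The log2 fold change was 4.73 ± 1.22 (adjusted p = 0.125), and without LPS library M2, the 0.200 CPM one, its adjusted p was 0.0175.

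Chat in the colon had no read after PBS and was at 17.8, 0.401, 9.86 and 0 CPM after LPS, at least 8.24-fold higher by the means (edgeR adjusted p = 0.103, and 0.0279 without LPS library M4). Npy had no read in any colon library after LPS against 4.43, 0, 0 and 4.37 CPM after PBS, at least 2.64-fold lower (adjusted p = 0.617). Tac1 (3.26 ± 1.42) and Calb2 (1.96 ± 0.76) had adjusted p of 0.592 and 0.531, and the rest had adjusted p of at least 0.851. LPS colon library F1 held the highest level of Nos1, Vip, Chat, Slc18a3 and Calb2 in its group. Its summed pan-neuronal level was 2637 CPM, where the other 3 LPS colon libraries were at 387 to 859 CPM. By group, the median pan-neuronal sum in the colon was 580 CPM after PBS and 666 CPM after LPS, with overlap. The part of neuronal content in the values of the 10 genes was not tested.

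At 24 h no transmitter gene passed for LPS in any of the 4 strata of genotype and region. The share of all genes called was 7.17% in the Gpr37WT small intestine, 7.96% in the Gpr37WT colon and 0.718% in each Gpr37-/- region. The counts at an unadjusted p under 0.05 were 2, 0, 3 and 3 in that order. Of all 14903 genes, 3229, 3695, 1709 and 1844 reached it. DESeq2 called 1, 0, 1 and 2 members. A fit of the compared groups alone called members in the Gpr37WT small intestine, as given under processing below. The median log2 fold changes of the 10 genes were 0.57 and 0.43 in Gpr37WT small intestine and colon and 1.79 and 1.59 in the Gpr37-/- ones, where those of all genes lay between -0.13 and -0.03.

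Vip and Cartpt had the largest log2 fold changes of the 10 genes in the Gpr37WT small intestine. Vip was at 42.2, 135 and 284 CPM (lowest, median, highest of 6) after PBS and at 819, 1629, 990 and 387 CPM after LPS in Gpr37WT mice. In Gpr37-/- mice it was at 169, 108, 42.7 and 1.32 CPM after PBS and at 221, 378, 1085, 911 and 213 CPM after LPS. Every LPS library was above every PBS library in each genotype, and the log2 fold changes were 2.77 ± 1.25 and 2.80 ± 1.41 (SE, edgeR adjusted p = 0.185 and 0.457).

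Cartpt was at 39.6, 85.7 and 128 CPM (lowest, median, highest) after PBS and at 519, 595, 525 and 126 CPM after LPS in Gpr37WT small intestine. Only the LPS library of mouse 13 lay within the PBS range. The log2 fold change was 2.44 ± 0.83 (edgeR adjusted p = 0.0668, and 0.0453 without that library). In the Gpr37-/- small intestine the values were 109, 50.6, 32.1 and 1.85 CPM after PBS and 199, 111, 537, 295 and 54.3 CPM after LPS, a log2 fold change of 2.30 ± 0.92 (adjusted p = 0.288).

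In the Gpr37-/- colon Slc18a3 was at 6.75, 2.67, 0.121, 0.888 and 0 CPM after PBS and at 9.67, 27.2, 90.6 and 3.73 CPM after LPS. A PBS library of 6.75 CPM was above 1 LPS library, and the log2 fold change was 4.05 ± 1.03 (edgeR adjusted p = 0.0558). It passed in 3 of 9 fits without 1 library, those without LPS mouse 11, LPS mouse 21 or PBS mouse 12, with an adjusted p of 0.0288 at the lowest. Tac1 there was at 3.63, 6.95, 10.2, 18.2 and 57.0 CPM after PBS and at 76.0, 156, 954 and 10.7 CPM after LPS (3.97 ± 1.17, adjusted p = 0.115). Gal did not overlap, at 36.8 to 101 CPM against 131 to 254 CPM (1.47 ± 1.02, adjusted p = 0.589).

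Calb2 in the Gpr37-/- small intestine was at 45.9, 63.2, 45.5 and 1.98 CPM after PBS and at 106, 78.8, 368, 514 and 94.7 CPM after LPS. There was no overlap, and the log2 fold change was 2.56 ± 0.91 (edgeR adjusted p = 0.201). In Gpr37WT small intestine it was -0.13 ± 0.80. The genotype by treatment term for Calb2 was 2.69 in the small intestine (95% interval 0.25 to 5.13, edgeR adjusted p = 1). In the colon that for Slc18a3 was 3.76 ± 1.35 (adjusted p = 0.225). No gene of those tested passed this interaction in either region (0% and 0%), and DESeq2 called 0 members. In each region 1 member had an unadjusted p under 0.05, where 578 (small intestine) and 2009 (colon) of all 14903 genes did.

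**Figure D4:**
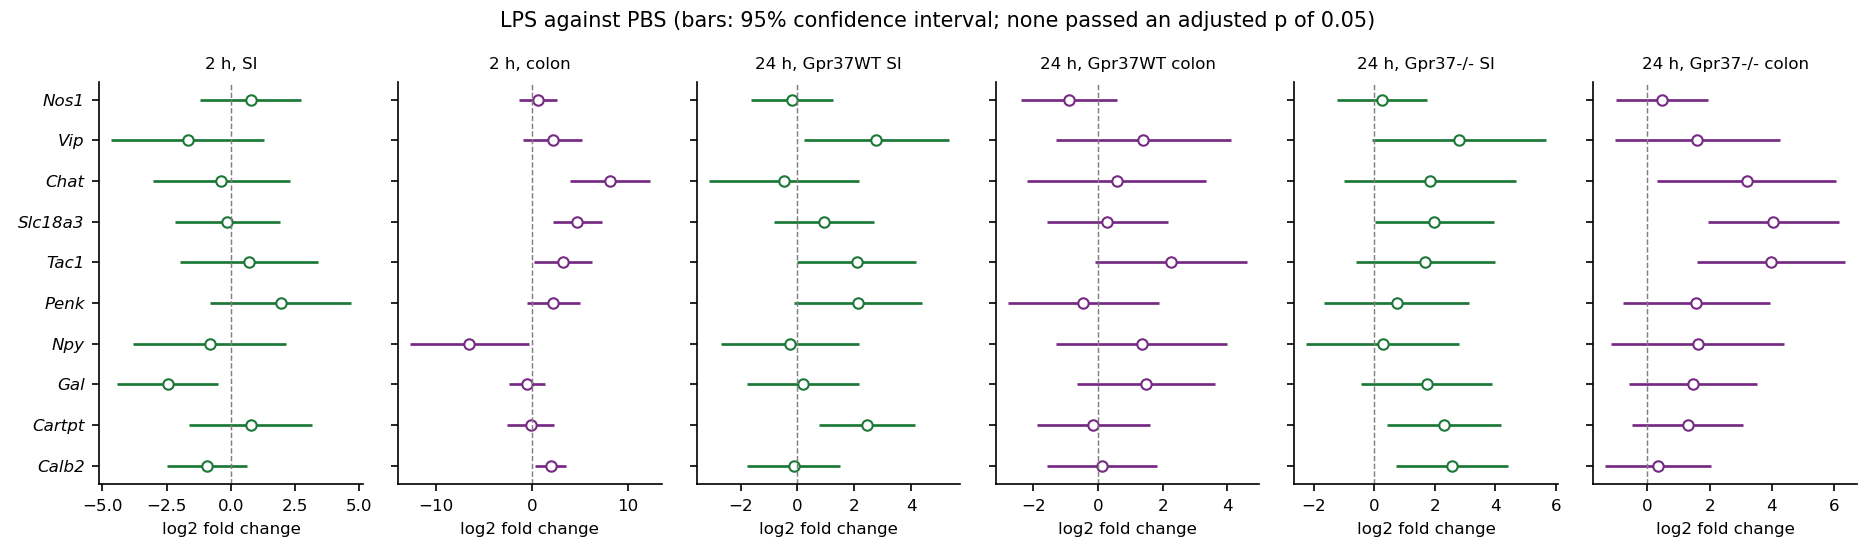
Log2 fold change of LPS over PBS with its 95% confidence interval for the 10 genes in the myenteric plexus, at 2 h and at 24 h, by region (SI, small intestine) and, at 24 h, by Gpr37 genotype. No point passed an adjusted p of 0.05, and all 10 estimates are above 0 in each Gpr37-/- region at 24 h.

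The mouse number moved with these values. Libraries of mice numbered 10 and below, a division known from earlier work on these data and not from the labels, had a median summed pan-neuronal level of 5356 CPM in the small intestine (6 libraries) and 1418 CPM in the colon (6 libraries), against 1922 CPM (13 libraries) and 729 CPM (12 libraries) in mice numbered 11 and above. The median mitochondrial share of counts was 15.4% and 4.57% in the 2 sets. They made up 5 of the 9 Gpr37WT LPS libraries and 1 of the 10 Gpr37WT PBS libraries. Among mice numbered 11 and above alone, the log2 fold change in Gpr37WT small intestine was 2.25 for Vip (edgeR adjusted p = 0.291) and 2.04 for Cartpt (adjusted p = 0.179), and in the Gpr37-/- colon 2.15 for Slc18a3 and 3.05 for Tac1 (adjusted p = 0.325 and 0.226). In the Gpr37-/- small intestine it was 0.90 for Calb2, 1.40 for Vip and 0.97 for Cartpt (adjusted p = 0.756, 0.839 and 0.856). Gpr37-/- PBS mouse 7 had the lowest value of its group for all 10 genes in the small intestine, with 278 CPM of pan-neuronal and 17832 CPM of glial markers. Without it the median log2 fold change of the 10 genes for LPS in that stratum was 1.49 and 8 of 10 estimates were positive.

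Among 15 tested receptor genes of the members, 4 were called lower in the Gpr37WT colon after LPS, beside 4% of all genes called lower, among them the Vip receptor gene Vipr2 (-4.29) and the nitric oxide-sensitive guanylate cyclase genes Gucy1b1 (-3.57) and Gucy1a1 (-3.37 log2). In the Gpr37WT small intestine 1 of 15, Galr2, was called lower (-6.74 log2), beside 2.99% of all genes called lower. None of the 12 pan-neuronal and none of the 12 peptide-processing genes was called for LPS in any of the 4 strata. In the Gpr37WT colon 2 of 5 fibroblast markers were called lower as well, and their summed level was 11133 to 19267 CPM after PBS and 339 to 8583 CPM after LPS. Both markers of interstitial cells of Cajal, the pacemaker cells of the gut wall, had a negative difference without a call, with sums of 77.6 to 307 CPM after PBS and 10.7 to 56.0 CPM after LPS. The median mesothelial sum was 102 CPM after PBS and 24.4 CPM after LPS in that colon, with overlap. In the Gpr37WT small intestine mesothelial sums were 696 to 3379 CPM after PBS and 251 to 487 CPM after LPS, and none of the 6 genes was called. The part of these cells in the receptor values was not tested.

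The loss of Gpr37 was compared next. No member was called in PBS small intestine or PBS colon, where 0% of genes were, in LPS small intestine, where 0.0134% were, or in LPS colon, where 0.429% were. The members with an unadjusted p under 0.05 numbered 1, 3, 0 and 1 in that order. Of all 14903 genes, 256, 629, 1137 and 2448 reached it. DESeq2 called 0, 2, 0 and 1 members. After PBS all 10 estimates were negative in each region, with small intestinal and colonic medians of -0.96 and -1.73 on the log2 scale, beside 0.00 and 0.03 over all genes. These comparisons share their PBS libraries with those of LPS above, so a low Gpr37-/- PBS group enters both.

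Vip in the PBS colon was at 386, 31.7, 1668 and 26.0 CPM in Gpr37WT and at 4.15, 35.3, 21.5, 1.78 and 13.8 CPM in Gpr37-/- mice. A Gpr37-/- library of 35.3 CPM lay above 2 of the 4 Gpr37WT libraries, and the log2 fold change was -5.10 ± 1.47 (edgeR adjusted p = 1, unadjusted p = 0.00144). Without mouse 22, the 1668 CPM library, it was -3.27. Slc18a3 in the same groups was at 21.7, 10.1, 50.5 and 17.7 CPM and at 6.75, 2.67, 0.121, 0.888 and 0 CPM, without overlap (-3.67 ± 1.02, adjusted p = 1, unadjusted p = 0.00102). Calb2 in the PBS small intestine lay between 87.0 and 184 CPM in Gpr37WT and between 1.98 and 63.2 CPM in Gpr37-/- mice (-1.88 ± 0.86, adjusted p = 1). After LPS, Vip in the colon was at a log2 fold change of -4.89 ± 1.57 (adjusted p = 0.136), where mouse 8 stood at 6544 CPM and the other 4 Gpr37WT libraries at 4.73 to 346 CPM. Without mouse 8 the log2 fold change of Vip was -1.13 (edgeR adjusted p = 0.703). The library of mouse 8 also held 9500 CPM of summed epithelial and 2041 CPM of mesothelial markers. Those of mice 5, 13 and 16 held 6.19 to 11.8 and 19.1 to 24.4 CPM. That of mouse 3 held 5937 and 1757 CPM, with Vip at 46.7 CPM. In this comparison 3 of the 5 Gpr37WT libraries, those of mice 3, 5 and 8, had 3 or fewer Gpr37 counts. The part of either in the Vip value was not tested. The remaining members had adjusted p of at least 0.37 in that group.

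The summed pan-neuronal level was 208 to 1503 CPM in the Gpr37-/- PBS colon and 668 to 1589 CPM in the Gpr37WT one, and 11 of 12 pan-neuronal genes had a negative difference there. In the PBS small intestine it was 278 to 1597 CPM in Gpr37-/- and 1922 to 3462 CPM in Gpr37WT mice, without overlap, and all 12 genes had a negative difference. None was called in either region. The part of neuronal content in the lower values after PBS was not tested.

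Across the 37 libraries of the 24 h experiment, deviations from the group means followed the neuronal markers to different degrees. Pearson's r with the mean deviation of the 12 pan-neuronal genes was 0.75 for Calb2, 0.74 for Vip, 0.73 for Nos1, 0.72 for Cartpt, 0.70 for Tac1, 0.58 for Slc18a3, 0.57 for Gal, 0.43 for Chat, 0.41 for Penk and 0.21 for Npy. This order was not that of the other experiments. In the 22 untreated libraries Npy was at 0.36 and Chat lowest at 0.10, and in the 16 libraries of the 2 h experiment Gal was lowest at -0.02. With the 9 glial markers r ran from -0.39 (Slc18a3) to 0.13 (Npy) at 24 h, and that of Npy was 0.38 in the untreated and -0.55 in the 2 h libraries. Libraries share depth and mouse, so these values are descriptions.

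**Figure D5:**
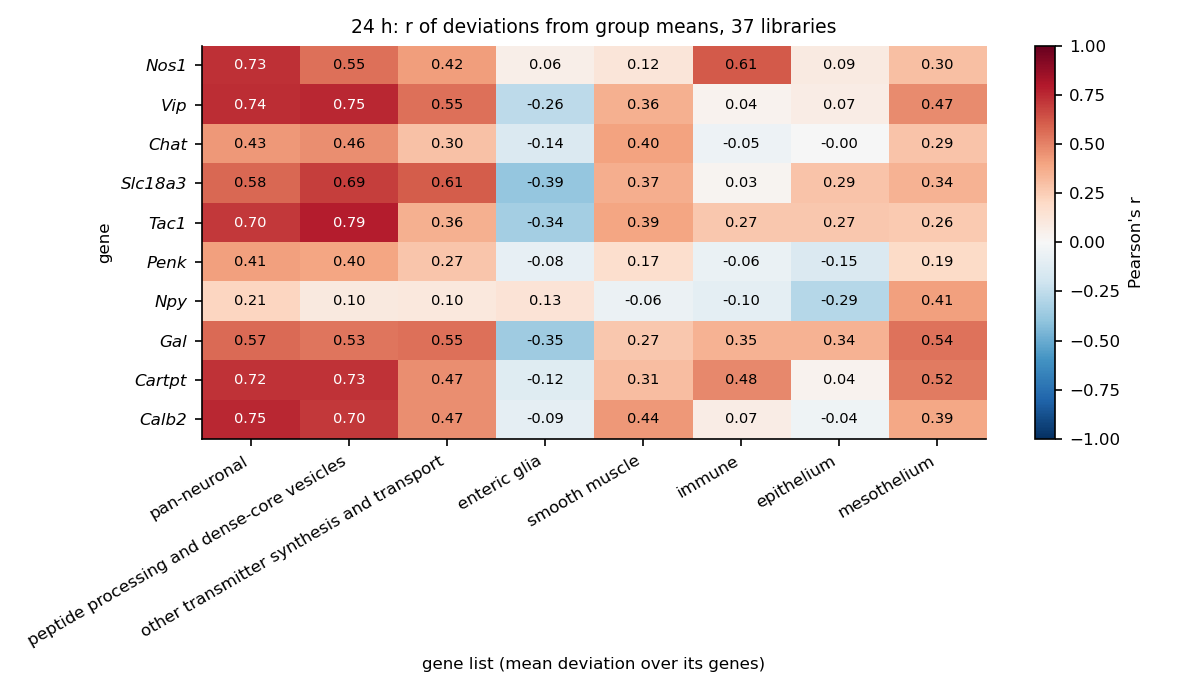
Pearson's r between the deviation of each gene from its group mean and the mean deviation of each gene list, over the 37 libraries at 24 h (log2 CPM, colour from -1 to 1). The pan-neuronal column runs from 0.21 for Npy to 0.75 for Calb2, and the glial column from -0.39 to 0.13.

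The gene whose deviations were most like those of each member was found in the same libraries, and is given for 9 of the 10 members. Among 11962 genes compared, Nos1 varied most like Pirt (r = 0.88) and Elavl4 (0.86), Slc18a3 like Serpini1 (0.89), Calb2 like the serotonin receptor gene Htr3a (0.88), and Vip like the synaptic vesicle gene Rab3a (0.79). Tac1 was closest to the ion channel gene Asic2 (0.82), Cartpt to Wdr6 (0.80), Penk to Gpr22 (0.73) and Chat to Slc8a1 (0.73). Npy had no partner above 0.62 (Begain). For Nos1 and Pirt r was 0.56 in the 22 untreated and 0.73 in the 16 libraries of the 2 h experiment. For Slc18a3 and Serpini1 it was -0.17 and 0.62, and Slc18a3 was at 0 in most submucosal libraries.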

How the data were processed

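The deposited files hold raw read counts per gene symbol for 75 libraries prepared with Smart-seq2, per the labels, without molecular identifiers. Reads were processed with Trim Galore 0.4.4, STAR 2.5.3 and DESeq2 on GRCm38, per the submitters' processing notes. The counting tool, annotation and use of strand are not given in the sources used here.

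From the counts, genes were filtered with filterByExpr, scaled with TMM and tested with edgeR's quasi-likelihood test (edgeR 4.0.16, limma 3.58.1, R 4.3.3) in 1 model per experiment, two-sided, with Benjamini-Hochberg adjustment over all genes tested and a threshold of 0.05. The SE is the absolute log2 fold change over the square root of F, and confidence intervals are 95%. Folds against a group with no reads use a floor of 3 counts per library, which covers counting error only. Levels are TMM-scaled CPM, and log2 CPM used a prior count of 2. Gene models are GENCODE M21 and upstream windows RefSeq. Figures and summaries used Python 3.11.15, pandas 2.3.3, scipy 1.17.1 and matplotlib 3.10.9. The scripts were tested on simulated data.

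The 10 members are all named. For each, the 3 genes with the highest r of deviations from group means over the 24 h libraries were found, among genes averaging 1 or more in log2 CPM, and the first is named, except that of Gal, which is not reported here. The members and lists were chosen with earlier results of these data known. Replicates are separate labelled samples, and p-values measure the spread between them. Of 143 replicate pairs, 0 had identical counts. At 24 h, libraries of the 2 regions share a mouse number in 15 pairs, with a mean r of deviations of 0.16.

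Alternatives were DESeq2 1.42.0, another normalization, no filter, the compared groups alone, a replicate block, covariates and leaving out each library. Mice numbered 11 and above alone, leaving out mouse 3, and the 24 h average over 4 arms with a mouse block were chosen after seeing the data.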

Additional observations from a re-analysis of the deposited data

Results flagged for a closer look

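In 15 of 160 combinations of gene and group with 4 to 6 libraries, the highest or lowest library stood apart from the others by Dixon's criterion, which chance meets in about 1 in 20 groups. There were 7 high and 8 low values. Gpr37-/- PBS mouse 7 in the small intestine gave 4 of them, with Calb2 at 1.98, Gal at 13.8, Npy at 3.31 and Slc18a3 at 4.63 CPM, where the next lowest libraries were at 45.5, 569, 39.5 and 38.8 CPM.

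The other low values were Cartpt at 126 CPM in the Gpr37WT LPS small intestine of mouse 13, Slc18a3 at 0 CPM in the Gpr37WT LPS colon of mouse 13, Npy at 5.65 CPM in the Gpr37WT PBS small intestine of mouse 23 and Npy at 0 CPM in the 2 h LPS small intestinal library M2. High values were Gal at 3114 CPM in the Gpr37WT LPS colon of mouse 3, Vip at 386 CPM and Slc18a3 at 1.56 CPM in submucosal small intestinal library F3, and Npy at 3.02 CPM in myenteric colon library M2. The colon library of mouse 3 also held 5937 CPM of epithelial, 266 CPM of enteroendocrine and 1757 CPM of mesothelial markers. Those of mice 5, 13 and 16 held at most 11.8, 5.75 and 24.4 CPM. That of mouse 8 held 9500, 41.6 and 2041 CPM, with Gal at 165 CPM. Chat stood high at 3.85 CPM in myenteric colon library F3, at 3.81 CPM in submucosal small intestinal library M1 and at 1.48 CPM in submucosal colon library M1.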

How the results depend on the processing

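DESeq2 called more members in several comparisons. For colon against small intestine it called 7 in the untreated myenteric plexus (3 by edgeR), 2 in the submucosal plexus (1), 5 after PBS at 2 h (1) and 1 in Gpr37WT PBS mice at 24 h (0). It called 2 for the plexus by region interaction, 2 for LPS in the colon at 2 h and 1 for the 2 h interaction, all 0 by edgeR. At 24 h it called 1, 1 and 2 for LPS in Gpr37WT small intestine, Gpr37-/- small intestine and Gpr37-/- colon, and 2 and 1 for genotype in PBS and LPS colon. Over all genes DESeq2 called 987 for the untreated myenteric regions (449 by edgeR) and 1149 for the submucosal ones (730). Its totals for the other comparisons are not given here, so those counts of members have no share of all genes to be read against.

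With the compared groups alone, 3 members were called between the plexuses of the colon (6, of which Slc18a3 and Cartpt were then filtered out), 2 between regions after PBS at 2 h (1), 2 for LPS in Gpr37WT small intestine (0) and 2 between regions in Gpr37WT PBS mice at 24 h (0), where mice numbered 11 and above alone gave 1. The cause of the other changes was not tested. The shares of all genes called in these fits, and in the block and leave-one-out fits below, are not given here.

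With the replicate block (sex and number, untreated), 1 member, Npy, was called between the myenteric regions, where Slc18a3 had an adjusted p of 0.059 and Cartpt of 0.162, and 0 between the submucosal ones, where Npy had 0.0678. Same-numbered untreated libraries had a mean r of deviations of 0.15 (lowest -0.088), and differently numbered ones -0.027. Pairs of the same mouse at 24 h had a mean of 0.16 (lowest -0.049). This r therefore cannot decide whether the numbers pair the untreated libraries, and the main fits left the block out. The mouse block averaged over 4 arms at 24 h called 5 between regions.

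Leaving out each library gave 1 to 4 members called between the myenteric regions, 0 to 1 between the submucosal ones, 3 to 6 and 6 to 7 between the plexuses of colon and small intestine, 0 to 2 between the 2 h PBS regions, and 0 to 1 for the plexus by region interaction, LPS in the colon at 2 h, LPS in Gpr37WT small intestine and LPS in Gpr37-/- colon at 24 h. Of 284 refitted values of called members, 242 kept the call, 42 lost it and 0 changed sign. Of 3347 values of members not called, 197 changed sign and 48 passed.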
